A study of Mus musculus with 5 samples.

Results

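Runs of closely spaced H3K9ac peaks were described in a striatal progenitor line that carries mutant huntingtin, with and without the compound DOP. H3K9ac is acetylation of lysine 9 on histone H3, read here by ChIP-seq, in which an antibody pulls down the DNA wrapped around the modified histone. The deposited data were 1 list of peaks (mm9) for each condition, 34286 peaks for the treated cells (DOP list) and 33355 for the vehicle cells (SST list). Both lists are longer than the peak sets described in the methods of the study, and the reason for the difference is not given in the sources used here, so every count of chains and domains refers to the lists as deposited. A chain was a run of peaks in which each centre lay within 1 kb of the next, and a domain was a chain of 5 or more peaks, so the domains were chosen by the peak positions of these same lists. The DOP list held 566 domains among 16496 chains, with 3067 of its peaks, and the SST list held 589 domains among 15809 chains, with 3246 of its peaks. Chains of both lists whose spans overlapped were merged into 18591 loci, of which 914 held a domain in at least 1 list.

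The cells were STHdh Q111, conditionally immortalized murine striatal progenitors of genotype STHdhQ111/Q111 on a C57BL/6 background, kept at 33 °C. Every group carried mutant huntingtin and every group was serum starved for 24 h. Q111 SST cells (2 samples) received serum-free medium with DPBS as vehicle, and Q111 DOP cells (2 samples) received serum-free medium with 4 mM 4-deoxypyridoxine hydrochloride, an inhibitor of sphingosine-1-phosphate lyase. Only 1 line of this genotype was used, wild-type STHdh Q7 cells were not analysed here, and 1 IgG control sample of the SST condition entered no comparison. The 2 samples of a condition reach the reader as 1 list, so no difference between the lists could be tested against replicate error. The lists hold no read counts, and the depth behind a peak is unknown.

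H3K9ac is placed by acetyltransferases and removed by histone deacetylases, and it marks nucleosomes that flank the start sites of genes in use. Sphingosine-1-phosphate in the nucleus is known to inhibit HDAC1 and HDAC2, which is why blocking its breakdown was of interest for histone acetylation. The peak caller reports point-like events, so a long acetylated stretch appears in its output as a row of separate peaks, and such rows were the object described here.

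Domain sequences were shown for peaks that the lists did not share and for a repeated locus, to make the base composition of a domain visible. The peaks were chr5:122609078-122609277 in an intron of Ppp1cc and chr7:31347554-31347753 in an intron at Psenen, both in the DOP list. From the SST list came chr17:84585373-84585572 in the coding exon of Zfp36l2, chr6:98977266-98977465 in an intron of Foxp1 and chr8:94883171-94883370 in an intron of Irx5. The last SST peak, chr9:3024374-3024573, lay in repeated sequence that the annotation counts as coding sequence of the predicted gene Gm10718. Each is the plus strand of NCBIM37 (mm9), 5′ to 3′, with CpG dinucleotides in capitals.
Ppp1cc, DOP list: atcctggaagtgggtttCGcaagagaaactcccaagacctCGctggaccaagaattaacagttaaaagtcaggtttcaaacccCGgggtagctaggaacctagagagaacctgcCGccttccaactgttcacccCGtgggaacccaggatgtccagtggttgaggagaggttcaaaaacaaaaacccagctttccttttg
Psenen, DOP list: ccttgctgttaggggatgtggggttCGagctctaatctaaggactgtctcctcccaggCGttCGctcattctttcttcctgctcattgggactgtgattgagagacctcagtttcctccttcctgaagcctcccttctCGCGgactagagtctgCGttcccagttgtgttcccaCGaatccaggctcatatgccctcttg
Zfp36l2, SST list: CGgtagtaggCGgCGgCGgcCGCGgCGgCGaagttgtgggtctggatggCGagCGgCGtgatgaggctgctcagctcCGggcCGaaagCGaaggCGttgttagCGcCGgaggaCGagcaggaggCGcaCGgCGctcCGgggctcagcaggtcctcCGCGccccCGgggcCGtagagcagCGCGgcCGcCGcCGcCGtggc
Foxp1, SST list: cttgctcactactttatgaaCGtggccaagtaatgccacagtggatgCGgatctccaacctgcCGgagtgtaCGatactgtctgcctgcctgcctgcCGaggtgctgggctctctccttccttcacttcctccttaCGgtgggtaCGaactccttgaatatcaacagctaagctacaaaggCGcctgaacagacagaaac
Irx5, SST list: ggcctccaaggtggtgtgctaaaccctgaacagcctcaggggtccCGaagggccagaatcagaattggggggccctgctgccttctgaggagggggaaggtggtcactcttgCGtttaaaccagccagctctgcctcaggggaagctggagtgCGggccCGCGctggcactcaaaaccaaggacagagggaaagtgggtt
Gm10718, SST list: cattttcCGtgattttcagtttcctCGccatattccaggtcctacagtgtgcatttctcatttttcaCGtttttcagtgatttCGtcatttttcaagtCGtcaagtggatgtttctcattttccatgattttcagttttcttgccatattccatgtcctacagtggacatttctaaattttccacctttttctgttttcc

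The Zfp36l2 peak was 75.5% G and C and held 32 CpGs in its 200 bp. The Foxp1 peak held 8 CpGs at 53.0% GC, Psenen held 7 at 53.5%, and Ppp1cc and Irx5 held 5 each at 50% and 61.0%. The Gm10718 peak, from a locus near the low-coordinate end of chromosome 9 in which 97.0% of 12-base words recurred at least 3 times, was 37.0% GC with 5 CpGs. Over all domain peaks the median GC content was 60.0% in the DOP list and 60.5% in the SST list, against 60.5% in both lists for peaks in chains of 4. The median ratio of observed to expected CpG was 0.692 in DOP domain peaks and 0.690 in DOP chains of 4, and 0.715 and 0.691 in the SST list. Single peaks had 0.442 and 0.478 over all positions. Within 1 kb of a coding start the single peaks came closer, with 0.695 and 0.725 against 0.735 and 0.756 for domain peaks. Domain peaks lay within 1 kb of a coding start in 81.5% (DOP) and 82.2% (SST) of cases, fewer than the 87.7% and 88.6% of peaks in chains of 4, close to the 81.3% and 81.7% in chains of 2 or 3, and above the 35.2% and 37.1% of single peaks.

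Short motifs were searched as exact letters on both strands in peaks within 1 kb of a coding start, in domains and in chains of 4. GGGCGG, the box bound by Sp factors, was present in 34.2% of DOP domain peaks and 34.1% of DOP peaks in chains of 4. In the SST list these shares were 34.9% and 32.8%. CCAAT was present in 13.3% and 13.1% in the DOP list and in 14.1% and 12.2% in the SST list. TGANTCA, the AP-1 site, was present in 2.56% of both kinds of peak in the DOP list and in 2.02% and 2.48% in the SST list. The E-box CACGTG was present in 3.96% and 3.49% in the DOP list and in 3.30% and 3.76% in the SST list. The ETS site CCGGAAG was present in 3.8% and 3.86% in the DOP list and in 3.75% and 3.93% in the SST list. The cyclic AMP response element TGACGTCA, the NRF1 motif GCATGCGC and the TEAD motif ACATTCCA were each in under 1% of all domain peaks of either list. These matches describe letters and show no bound factor.

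Most domains were short rows near the lower limit. Of the DOP chains 417 had exactly 5 peaks and 1315 had 4, just outside the rule, and of the SST chains 413 had 5 and 1329 had 4. Domains were 3.43% of DOP chains and 3.73% of SST chains, and their peaks were 8.95% of the DOP list (95% Wilson interval 8.65 to 9.25) and 9.73% of the SST list (9.42 to 10.1). These intervals cover counting error only. Chains of 7 or more were few, with 25 DOP and 41 SST chains of 7 and 8 DOP and 11 SST chains of 8.

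**Figure D1:**
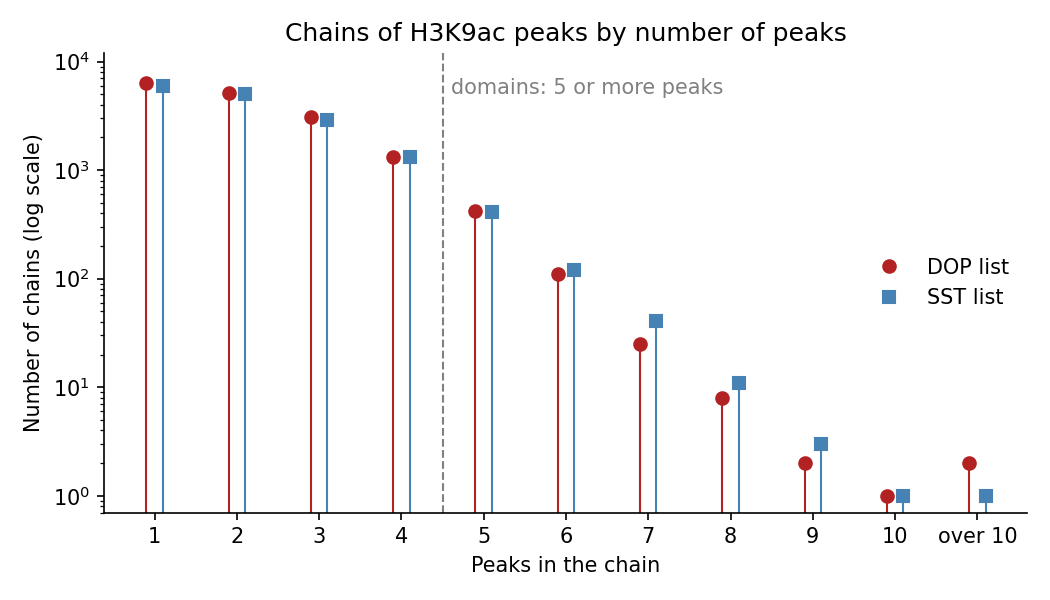
Number of chains (log scale) by the number of peaks in the chain, for the DOP list (circles) and the SST list (squares). Counts fall from 6379 and 5899 single peaks to 417 and 413 chains of 5, with the dashed line at the lower limit of a domain.

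The median domain spanned 2054 bp in the DOP list (quartiles 1654 and 2433) and 1997 bp in the SST list (1622 and 2364). Only 36 DOP and 33 SST domains were wider than 3 kb. Among the 4-peak chains, 83 of 1315 in the DOP list and 96 of 1329 in the SST list were wider than the median domain. Neighbouring peaks lay a median of 383 bp apart in DOP domains and 371 bp in SST domains, close to the 392 and 385 bp in chains of 2 to 4. The quartiles of the spacing were 271 and 620 bp in DOP domains and 235 and 605 bp in SST domains.

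Peaks within a domain usually differed widely in score, as did peaks in chains of 4. The score is the peak caller's value, whose definition is not given in the sources used here, so only its rank within a list was used, as a percentile from 0 to 100. The highest peak of a domain had a median percentile of 91.6 in the DOP list and 90.9 in the SST list, and the lowest had 29.1 and 30.7. In chains of 4 the highest had 87.0 and 86.0 and the lowest had 31.8 and 31.1. Rows of more peaks have more room for such a spread. The strongest peak stood at an end of the row in 70 of 566 DOP domains (12.4%) and 48 of 589 SST domains (8.15%). In the other domains it stood inside the row.

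Domains sat on gene starts. A start site of a protein-coding gene (GENCODE vM1) lay within 1 kb of the span at 871 of 914 domain loci (95.3%), close to the 94.5% of the 1860 loci whose longest chain had 4 peaks. The share was 77.3% for loci with 2 or 3 peaks in a row and 24.7% for single peaks. A divergent gene pair with starts within 1 kb of each other lay under 170 domain loci (18.6%), against 15.1% at 4-peak loci and 5.68% at loci of 2 or 3. The start of a lincRNA, a long non-coding RNA gene, lay at 62 domain loci. By centre, 46.0% of DOP and 45.8% of SST domain peaks were in introns, 25.9% and 25% outside coding genes, 15.2% and 15.7% in untranslated exons and 12.8% and 13.5% in coding exons.

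The rows leaned into the gene. At the 664 domain loci with 1 coding gene the span reached a median of 1324 bp downstream of the start site and 635 bp upstream, and it reached farther downstream at 516 of them (77.7%). This lean was shared by shorter rows, with 80.1% at 4-peak loci and 84.5% at loci of 2 or 3. Of the peak centres at domain loci 67.6% (DOP) and 70.6% (SST) were downstream, against 72.3% and 74.6% at 4-peak loci. Peak centres were sparse just upstream of the start. The 250 bp directly upstream held 106 DOP and 104 SST centres, the 250 bp beyond that held 393 and 373, and the bin from 250 to 500 bp downstream held 571 and 627. Compared with 4-peak loci, domain loci had additional peaks at the flanks, with 17.4% of DOP and 18.7% of SST centres over 1 kb downstream against 10.4% and 10.5%. The share over 1 kb upstream was 3.48% and 2.94% at domain loci and 1.14% and 0.894% at 4-peak loci. A row of more peaks at a similar spacing reaches farther, so these differences at the flanks follow at least in part from the domain rule.

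**Figure D2:**
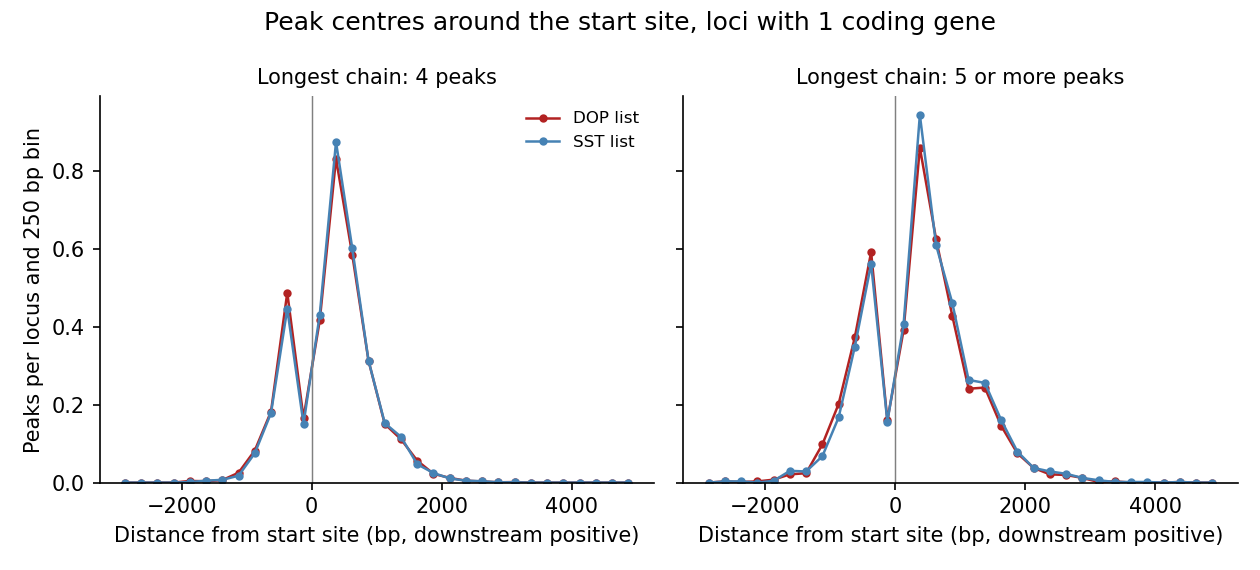
Peak centres per locus in 250 bp bins around the coding start site (bp, downstream positive), for loci with 1 coding gene and a longest chain of 4 (left) or of 5 or more (right), with the DOP list in red and the SST list in blue. Both lists dip directly upstream of the start, and the right panel has broader shoulders on both sides.

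Domain loci made up 4.92% of all loci (95% Wilson interval 4.61 to 5.24). On chromosome 19 domain loci were 55 of 645 loci (8.53%, 6.61 to 10.9), and on the X chromosome 13 of 490 (2.65%, 1.56 to 4.49). These shares were not tested against each other.

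Outside repeated sequence the locus with the most peaks in both lists together was that of Irx5. Irx5, which encodes an Iroquois homeobox transcription factor, shared a locus with the start of 4933436C20Rik that spanned 5670 bp (chr8:94878963-94884632), with 8 DOP and 10 SST peaks. Distances at named loci run from the annotated start of the gene that lies nearest the middle of the locus. The SST peaks at Irx5 lay from 1888 bp upstream to 2722 bp downstream of the Irx5 start. SST peaks 817 and 1575 bp downstream, in the intron, had no DOP peak at their place, while a DOP peak 2633 bp upstream had no SST peak. The DOP peaks fell into chains of which the longest had 6 peaks, whereas the SST peaks formed 1 chain of 10.

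Trim8, which encodes a RING-type ubiquitin ligase, had 8 DOP and 7 SST peaks over 5157 bp (chr19:46574028-46579184). From 1289 bp upstream to 2927 bp downstream the other 7 DOP peaks each had an SST peak at their place, and only the weak DOP peak 2011 bp upstream, at percentile 14.3, did not. Ssbp3, a cofactor of LIM-domain transcription complexes, had 8 peaks in each list over 3173 bp, and every peak overlapped one of the other list. Its strongest peaks had percentiles of 95.8 (DOP) and 94.5 (SST). Hnrnpul2, which encodes an RNA-binding protein, and Ttc9c had 8 DOP and 9 SST peaks over 3245 bp.

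Myc, the growth-regulating transcription factor, had 6 DOP and 8 SST peaks over 4703 bp (chr15:61815768-61820470). The 6 DOP peaks were all matched in the SST list. The SST list added a peak 2722 bp upstream and called 2 peaks, 980 and 1088 bp downstream, where the DOP list called 1. A second locus 50436 bp from the Myc start, in the lincRNA gene Pvt1, had 2 DOP and 5 SST peaks.

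A few loci were repeated sequence, with over 25% of 12-base words recurring nearby. The largest, near the low-coordinate end of chromosome 9, spanned 32490 bp with 51 DOP and 59 SST peaks and carried 10 predicted genes such as Gm10715 and Gm10718. A second next to it had 9 peaks in each list. The others lay near Sfi1, with 4 DOP and 6 SST peaks, and near Gm17379 on the X chromosome, with 10 and 2. Reads from such sequence can be placed at many copies, and these 4 loci stayed in all counts but their genes are not described further. The strongest peak ranked at percentile 100.0 in both lists at both chromosome 9 loci, at 99 (DOP) and 98.9 (SST) at the X locus and at 55 and 45.9 near Sfi1.

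Counted by domain, the lists overlapped in part. Of the 914 loci 240 (26.3%) held a domain in both lists, 325 only in the DOP list and 349 only in the SST list. Absence of a domain seldom meant absence of peaks. At the 325 DOP-only loci the longest SST chain had 4 peaks at 163 (50.2%), 3 at 102, 2 at 53, 1 at 5 and 0 at 2. At the 349 SST-only loci the longest DOP chain had 4 peaks at 190 (54.4%), 3 at 100, 2 at 54 and 1 at 5. A locus that entered through 1 list had by construction a shorter chain in the other, so the direction there follows from the rule. Exactly 5 peaks were in the domain at 268 of the DOP-only and 280 of the SST-only loci. At 12 of the 325 DOP-only and 10 of the 349 SST-only loci the other list also had 5 or more peaks, split into shorter chains.

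Called at a difference of at least 2 peaks, 183 domain loci (20%) had more peaks in the DOP list and 207 (22.6%) had fewer, and 138 (15.1%) had equal numbers. Over all 18591 loci the same calls were made at 5.84% and 5.13%, and over the 1860 loci with a longest chain of 4 at 12.6% and 12%. Loci with more peaks have more room to differ, and the domain rule used the same counts, so the shares are a description. By length of the row, untested, the counts were as follows. At the 647 loci with a longest chain of 5, 128 had more and 123 had fewer, and at the 192 with a longest chain of 6 it was 44 and 56. At the 52 with a longest chain of 7 it was 8 and 18, at the 16 with 8 it was 1 and 7, and at the 4 with 9 and the 2 with 10 it was 1 and 1 each. At the 240 loci with a domain in both lists 130 were equal, 5 had more and 19 had fewer.

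**Figure D3:**
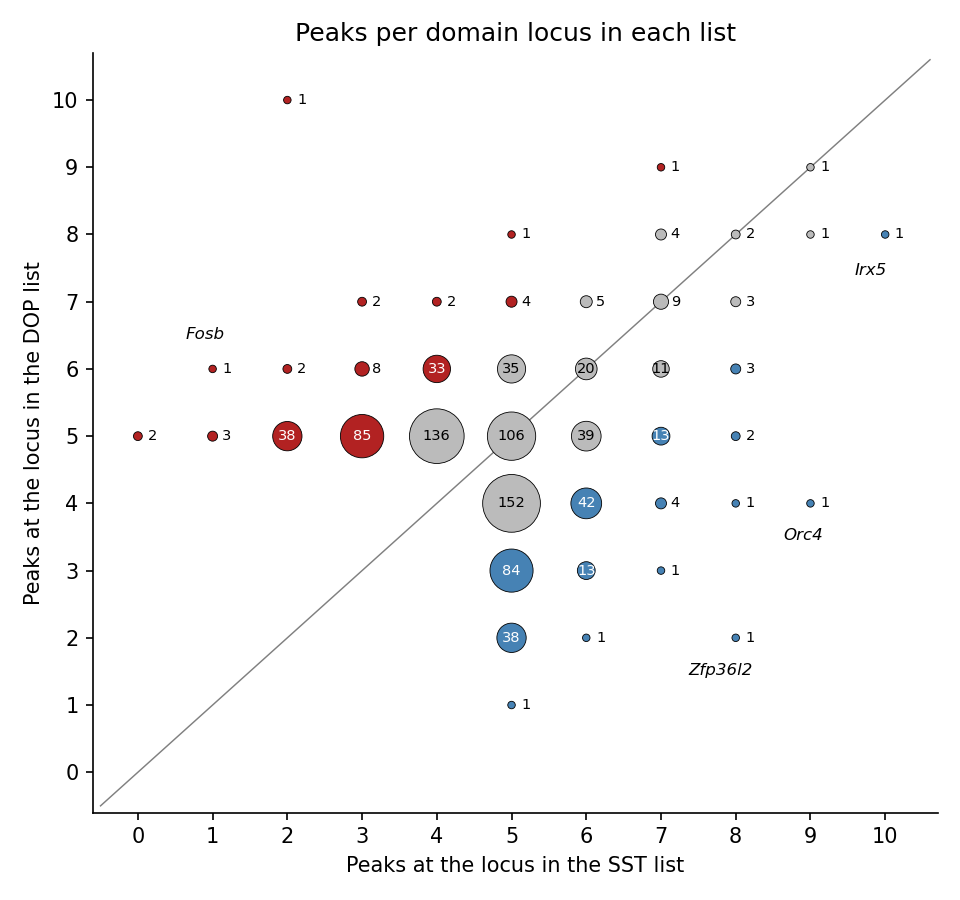
Domain loci by the number of peaks in the SST list (horizontal) and the DOP list (vertical), with point area and the printed number giving the count of loci. Red marks at least 2 more DOP peaks, blue at least 2 fewer, and the repeated locus with 51 and 59 peaks lies outside the axes.

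Most domain peaks found in only 1 list lay beyond the other list's peaks at the locus. Of the domain peaks, 464 DOP peaks (15.1%, 13.9 to 16.4) and 428 SST peaks (13.2%, 12.1 to 14.4) overlapped no peak of the other list. For peaks in chains of 4 the shares were about the same, 14.7% and 12.8%, and for all peaks outside domains they were 20.5% and 17.1%. Of the unmatched domain peaks, 81.5% in the DOP list and 74.5% in the SST list lay outside the span of the other list's peaks at that locus. Where the other list had 1 peak, every unmatched peak counted as outside. At domains of only 1 list the other row was shorter by the rule, so these shares follow in part from the construction. They were not computed for chains of 4. The median percentile of unmatched domain peaks was 34.4 (DOP) and 38.8 (SST), against 69.7 and 69.9 for matched domain peaks. The unmatched peaks inside the other list's span, 76 DOP (16.4%) and 109 SST (25.5%), ranked higher, at medians of 54.2 and 58.9, than those outside it, at 31.2 and 34.1.

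Other differences lay at places where both lists had peaks. Whether the same signal had been divided into more peaks there was not tested. At 24 of the 183 loci with more DOP peaks, and at 44 of the 207 with fewer, every peak of the longer row overlapped a peak of the other list, so that several peaks stood where the other list had fewer. Unmatched peaks made up the whole difference at 63 (34.4%) and 53 (25.6%) of these loci. The strongest unmatched peak was in the upper 50% of its list at 65 of the 183 and 66 of the 207 loci. Those totals include the 24 and 44 loci that had no unmatched peak.

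The strongest peak was ranked separately, since a sum of scores over more peaks largely restates the call. At the 181 loci with at least 2 more DOP peaks and a peak in both lists, the strongest peak ranked lower in the DOP list, with a median difference of -3.86 percentile points. At the 207 loci with fewer DOP peaks it ranked higher in the DOP list, by a median of 5.61 points. At the other 524 domain loci the median difference was 0.09 points. A change in acetylation and a change in how the caller divided the same signal into peaks cannot be told apart from these lists.

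Fosb, a subunit of the AP-1 transcription factor induced by growth signals, had the largest excess of DOP peaks among loci with a coding start site. The locus (chr7:19893249-19896136, 2888 bp) had 6 DOP peaks and 1 SST peak. The shared peak lay in an intron 1619 bp downstream of the start, at percentile 42.1 in the DOP list and 36.4 in the SST list. The other 5 DOP peaks, from 642 bp upstream to 2046 bp downstream, had percentiles from 5.27 to 31.6 and no SST peak at their place. All Fosb peaks were thus in the lower 50% of their list, and an intron peak 956 bp downstream was the strongest of the unmatched ones.

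Ppp1cc, a catalytic subunit of protein phosphatase 1, differed in another way, with 6 DOP and 2 SST peaks over 2064 bp (chr5:122607836-122609899). Its SST peaks, 221 and 571 bp downstream, ranked at percentiles 99.2 and 94.6. The DOP list had 3 peaks at those places, at percentiles 71.6, 90.1 and 89.0, and 3 unmatched ones at 36.2, 69.6 and 32.3. More peaks here went with a lower strongest peak.

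Exactly 4 more DOP than SST peaks were present at 7 loci, of which Ppp1cc and the next 3 were named by a rule that broke ties by the difference relative to the sum of peaks. Psenen, a subunit of gamma-secretase, and the splicing factor gene U2af1l4 shared 5 DOP peaks and 1 SST peak, which ranked at percentile 72.9 against 52 for the strongest DOP peak. Ndufaf3, an assembly factor of respiratory complex I, had 5 DOP peaks and 1 SST peak, with unmatched DOP peaks 790 bp upstream and 277 and 676 bp downstream, at percentiles 28.3, 71.1 and 64.0. Tomm6, a small subunit of the mitochondrial import pore, and Frs3, an adaptor of FGF receptors, shared 5 DOP peaks and 1 SST peak. The unmatched DOP peaks there lay 379 to 1015 bp upstream of Tomm6.

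Only 2 domain loci had no peak at all in the other list. A DOP domain in a histone cluster (chr13:23676852-23678863) lay in the annotated body of Hist1h2be, 3385 bp from the nearest coding start, that of Hist1h4d. It had 5 peaks with percentiles from 21.8 to 60.4, and the nearest SST peak lay 2637 bp away. A DOP domain 9313 bp from the start of Eomes, a T-box transcription factor gene (chr9:118397292-118399285), had 5 peaks with percentiles from 0.341 to 4.46. Those were among the weakest peaks of the list, and the nearest SST peak was 16342 bp away.

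Zfp36l2, whose product binds AU-rich mRNA and promotes its decay, had the largest excess of SST peaks outside repeats. The locus (chr17:84584438-84588395, 3958 bp) had 2 DOP and 8 SST peaks. DOP peaks lay 1704 bp upstream and 107 bp downstream, at percentiles 49.0 and 90.8. SST peaks stood at both places and at 1175 and 573 bp upstream and 1005, 1125 and 1940 bp downstream, the last 5 without a DOP peak and at percentiles from 52 to 75. The strongest peak of the locus was at nearly the same place in both lists, 107 and 118 bp downstream, at percentiles 90.8 and 93.9.

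Foxp1, a forkhead transcription factor of striatal neurons among other cells, had 2 DOP and 6 SST peaks (chr6:98976216-98979241, 3026 bp). Both DOP peaks were matched, at percentiles 80.8 and 89.8 against 83.1 and 88.7 in the SST list. The unmatched SST peaks lay 955 bp upstream and 821, 1003 and 1871 bp downstream, at percentiles 19.9, 49.8, 36.2 and 32.8. The centre of the promoter was thus called alike and the flanks were called only in the SST list.

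Crat, which encodes carnitine acetyltransferase, and Ppp2r4, an activator of phosphatase 2A, shared 1 DOP and 5 SST peaks over 1585 bp. The DOP peak ranked at percentile 99.5 and the matching SST peak at 99. The 4 unmatched SST peaks, from 823 bp upstream to 562 bp downstream of the Crat start, ranked at 81.6, 77.2, 42.2 and 58.0. Orc4, a subunit of the origin recognition complex, and Mbd5 shared 4 DOP and 9 SST peaks over 2703 bp. There 6 of the 9 SST peaks overlapped 1 of the 4 DOP peaks, and the other 3, at percentiles 11.8, 46.4 and 26.5, had no DOP peak at their place. The excess of 5 SST peaks was thus made up of unmatched peaks and of places called as several SST peaks.

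Stard7, a phosphatidylcholine transfer protein gene, had 3 DOP and 7 SST peaks. Its DOP peaks each overlapped an SST peak, 5 of the 7 SST peaks overlapped a DOP peak, and the other 2 ranked at percentiles 2.44 and 5.61. Ptges3, which encodes the HSP90 co-chaperone p23, and Baz2a, a subunit of a nucleolar remodelling complex, had 4 DOP and 8 SST peaks. Unmatched SST peaks there lay 787 bp upstream and 987, 1437 and 1831 bp downstream of the Ptges3 start, at percentiles 40.0, 59.4, 23.9 and 21.6. Acsl3, a long-chain acyl-CoA synthetase gene, and Utp14b had 2 DOP and 5 SST peaks. Unmatched were the SST peaks 969 and 1492 bp downstream of the Acsl3 start, at percentiles 37.6 and 19.6, and the other 3 stood at the 2 DOP places.

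**Figure D4:**
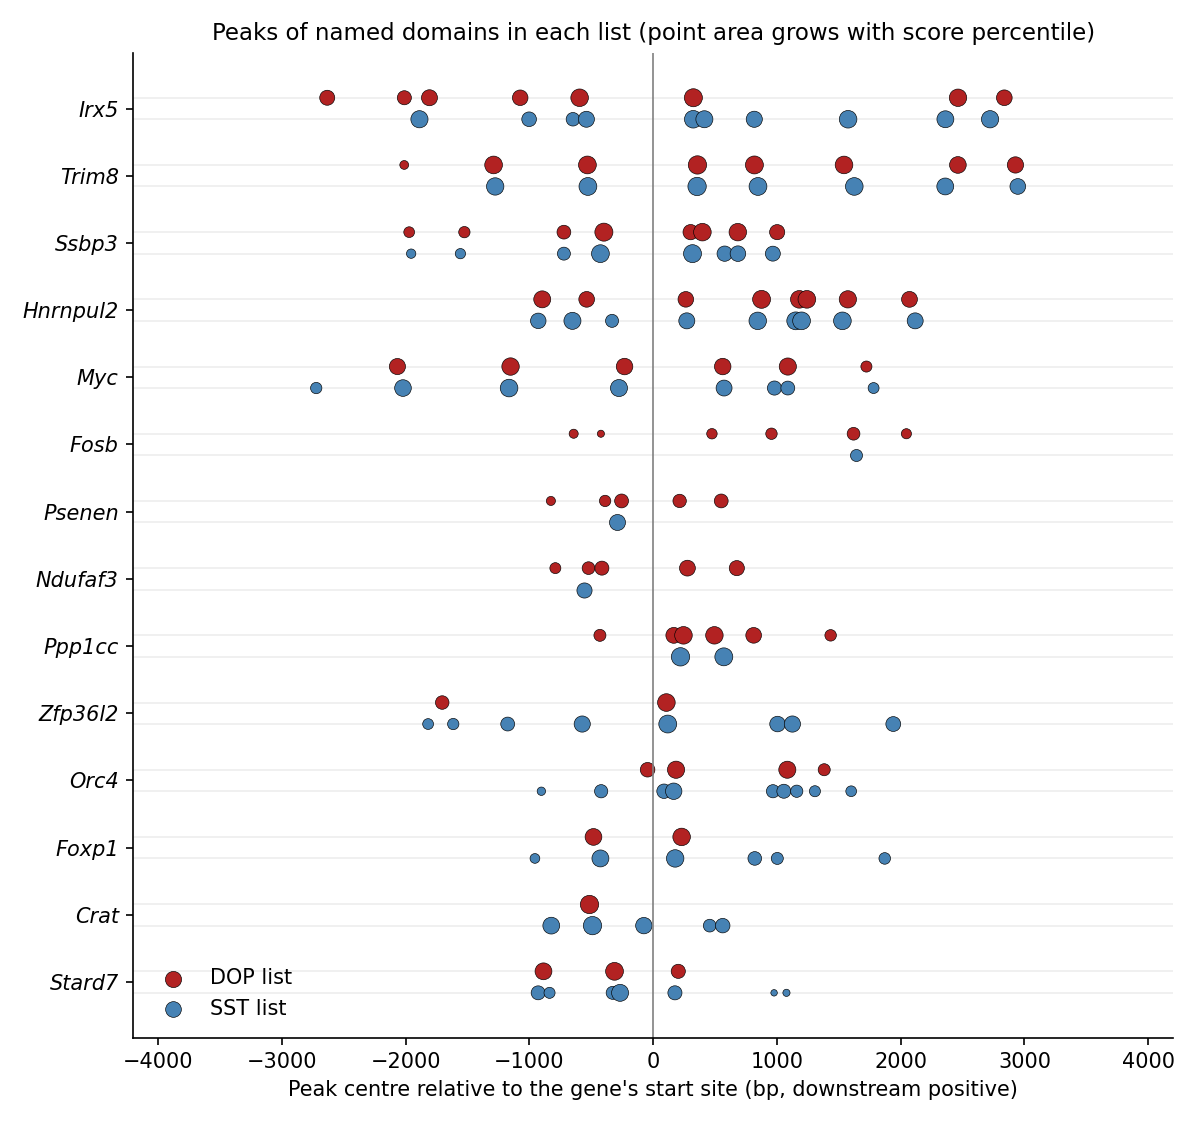
Peak centres of 14 domain loci relative to the start site of the named gene (bp, downstream positive), with the DOP list in red above the SST list in blue and point area growing with score percentile. Trim8 and Ssbp3 show matched rows, Fosb and Zfp36l2 show rows present mainly in 1 list, and Orc4 and Stard7 show close-set SST peaks at the place of single DOP peaks.

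By gene, 681 coding genes lay under a DOP domain, 709 under an SST domain and 301 under both, 1089 in all. This was 4.87% of 22359 coding genes and 9.32% of the 11687 that had any peak less than 1 kb from their start in either list. Of the 1089 genes, 18.9% were at loci with at least 2 more DOP peaks and 23.0% at loci with at least 2 fewer. These shares, and the 9.32% for lying under a domain, are the background for the gene groups. No group was tested against them. Genes under domains had a median length of 24.7 kb, those under a domain in both lists 21.1 kb, and genes with a peak and no domain 23.1 kb.

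Genes that answer growth signals were under domains at 5 of the 25 immediate early genes with a peak (20%). Jund, an AP-1 subunit, had 5 DOP and 7 SST peaks, and Ier3, a survival gene, had 3 and 5. Klf6, a zinc finger factor, had 5 and 6. Of these 5, Fosb had at least 2 more DOP peaks, and Myc, Jund and Ier3 had at least 2 fewer. Members without a domain also differed, among them Jun and Arc, each with 4 DOP peaks and 1 SST peak within 1 kb of the start.

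One list held transcription factors of the nuclear factor, Runx, Klf, Foxo and related families, with the Zfp36 mRNA-binding proteins. It was chosen, as all the gene lists were, with earlier results of these data known. All 20 genes had a peak and 9 were under domains (45%), beside 9.32% of all genes with a peak. Runx1, Runx2 and Runx3 were not among the 9. Foxo3, a stress-responsive forkhead factor, had 6 DOP and 7 SST peaks, Nr2f2, an orphan nuclear receptor, had 7 and 6, and Nfib, a nuclear factor I protein, had 6 and 5. Klf9 and Klf3 each had 5 DOP and 2 SST peaks, and Klf16 had 5 and 3. The strongest peak ranked lower in the DOP list at Klf3 (90.4 against 97.1) and Klf16 (87.6 against 97.7) and higher at Klf9 (85.1 against 81.4). Zfp36l2, with 2 and 8, was the sole member with at least 2 fewer.

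Signalling pathways of development carried some domains. Of 14 Hippo pathway genes with a peak 4 were under one. Wwtr1, the coactivator TAZ, had 5 DOP and 7 SST peaks, Lats2, a kinase of the pathway, had 3 and 5, Tead1 had 4 and 5, and Tead3 had 5 and 4. Of 18 Wnt pathway genes with a peak 5 were under one. Tcf7l2, a nuclear effector, had 5 and 7, and the receptor gene Fzd2 had 4 and 6. Dvl3 and Fzd7 had 5 and 5 each, and Fzd1 had 5 and 4. The Notch pathway had 2 of 12, Notch2 and Maml1 with 5 peaks in each list. The TGF-beta and SMAD pathway had 3 of 19, Skil with 5 and 6, Smad2 with 5 and 3 and Bmpr1a with 5 and 4. Hoxb2, with 7 and 7, and Hoxb9, with 6 and 5, were 2 of 19 Hox genes with a peak.

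Of 16 genes for acetyltransferases and bromodomain readers of acetylation, 4 had a domain. Ep300, the acetyltransferase p300, had 5 peaks in each list with the strongest at percentiles 99.9 and 100.0, and Crebbp, its close relative, had 4 DOP and 6 SST peaks. Brd2, a reader of acetylated histones, had 7 and 5, and Myst4, an acetyltransferase of the MYST family, had 5 and 5. None of the 16 histone deacetylase genes with a peak had a domain, Hdac1 having longest chains of 2 DOP and 3 SST peaks and Hdac2 of 3 and 3. Over all genes with a peak the share was 9.32%, so few domains would be expected among 16 genes. Neither gene group was tested against that share. Among chromatin remodelling and Polycomb genes 4 of 21 had a domain, with Arid2 at 6 and 7, Pcgf2 at 5 and 6, and Bmi1 and Suz12 at 4 and 5 each.

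Histone genes were under domains in groups, since several lie under 1 span. Of 66 replication-dependent histone genes with a peak 21 (31.8%) were under one, but at only 10 loci, 8 of them on chromosome 13. Those 10 loci had 53 DOP and 46 SST peaks, with equal numbers at 3. The DOP domain near Hist1h4d, with 5 DOP and 0 SST peaks, had no coding start within 1 kb and is not among them. A difference of 1 peak or more put 6 of the 10 loci higher in the DOP list and 1 lower, but at a difference of at least 2 peaks only 2 were higher and 0 lower. These 2 were the locus of Hist1h2bb and Hist1h3c and that of Hist1h2bh and Hist1h3f, with 6 DOP and 4 SST peaks each. Of the loci that differed, only that of Hist1h2ap, with 6 DOP and 5 SST peaks, had a domain in both lists. The others entered through 1 list, so their direction follows from the rule. Over all 914 domain loci a difference of 1 peak or more put 363 higher in the DOP list and 413 lower. Members of 1 histone family, such as the H4 genes, can be near-identical copies, and how reads shared between copies were placed is not given in the sources used here.

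Ribosomal protein genes were under domains at 15 of 79 with a peak (19.0%), with more DOP peaks at 3 and fewer at 4. Rpl7, sharing its start region with Rdh10, had 6 peaks in each list, Rpl13 had 6 and 4, Rpl12, beside Lrsam1, had 4 and 7, and Rpl27a had 4 and 6. Genes of oxidative phosphorylation had domains at only 2 of 68, Ndufb5 with 5 DOP and 3 SST peaks and Ndufb11 with 5 and 2. Proteasome genes had 1 of 37, Psma6 with 2 and 5, whose SST domain was the narrowest at 931 bp. These were 2.94% and 2.70% of the genes with a peak in their lists, beside 9.32% of all genes with a peak.

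**Figure D5:**
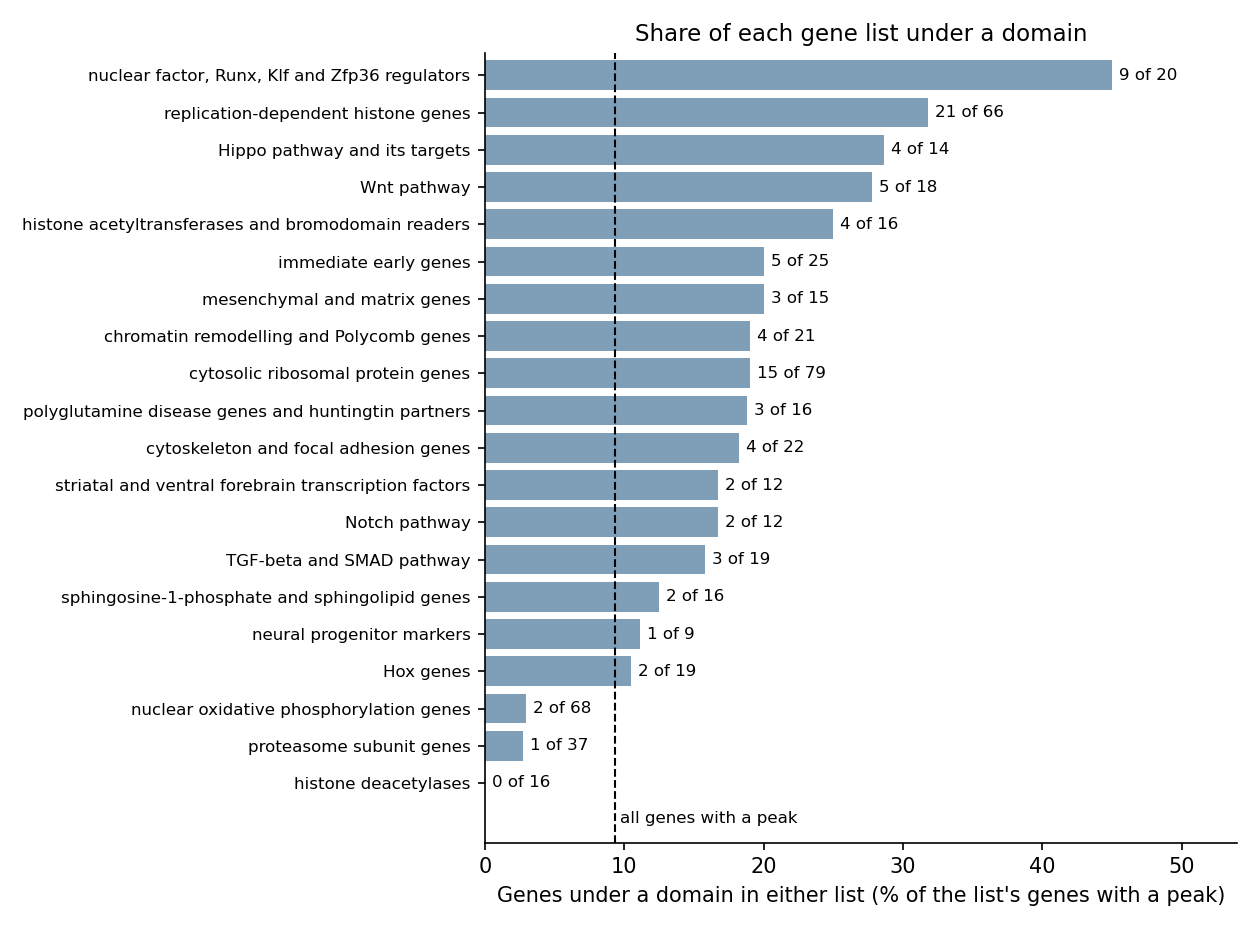
Share of the genes of each list that lay under a domain in either peak list (% of the list's genes that had any peak less than 1 kb from their start), for lists with at least 9 such genes, with the counts beside the bars. The dashed line is the 9.32% of all genes with a peak, and the bars run from 0 of 16 histone deacetylases to 9 of 20 in the list led by Klf and nuclear factor genes. The lists were chosen with earlier results of these data known.

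Genes of the study's own interest mostly had chains below the limit. Sgpl1, which encodes sphingosine-1-phosphate lyase, had 4 DOP and 5 SST peaks over 1494 bp (chr10:60609388-60610881), with the strongest at percentiles 99.6 and 99.8, so it counted as an SST domain only. Actb, the cytoskeletal actin, had 3 and 5, with the strongest peak at percentiles 98.9 and 87.1. Tcf12, an E-protein transcription factor, had longest chains of 4 in both lists, and Sp1, the factor of GC boxes, of 4 and 3. Bcl2l11, which encodes the apoptosis activator BIM, had longest chains of 1 in the DOP list and 4 in the SST list. Htt itself had 2 and 3, Ahnak, a large scaffold protein gene, had 3 and 4, and Tns1, a focal adhesion gene, had no peak within 1 kb of a start in either list. Sgms1, a sphingomyelin synthase gene, was the other sphingolipid gene under a domain, with 5 DOP and 3 SST peaks.

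Of the genes that interact with huntingtin or cause other polyglutamine diseases 3 of 16 with a peak were under domains. Rcor1, the CoREST corepressor, had 4 DOP and 7 SST peaks, Sp3 had 6 and 6, and Atxn2 had 5 and 5. Among cytoskeleton and focal adhesion genes it was 4 of 22, with Zyx at 5 and 5, and Itgb1 and Vcl at 5 DOP and 4 SST peaks each.

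Markers of cell types were checked at the same start sites. Of 17 neural progenitor markers 9 had a peak in either list and 1 lay under a domain. Nes, Sox2 and Pax6, defining genes of neural progenitors, had no peak within 1 kb of a start in either list, while Vim had 2 DOP and 3 SST peaks, Sox9 had 3 and 4, Id3 had 3 and 3, and Msi2, an RNA-binding protein of progenitors, lay under a domain with 6 DOP and 3 SST peaks. Of 12 striatal and ventral forebrain factors with a peak 2 were under domains, Foxp1 and Dlx1, the latter with 3 and 5. Both entered through the SST list only, so that their lower number of DOP peaks follows from the rule. Of all 1089 genes under a domain 23.0% were at loci with at least 2 fewer DOP peaks. Mature striatal neuron genes had a peak at 3 of 18 and no domain, and astrocyte, oligodendrocyte, microglia and endothelial lists had no domain either. Mesenchymal and matrix genes had a peak at 15 of 20 and domains at 3, Twist2 with 6 and 7, Twist1 with 4 and 5 and Fn1 with 4 and 5. Acetylation at a start site does not measure RNA.

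Away from coding starts there were 43 domain loci, 25 of them over 10 kb from the nearest coding start and 12 over 50 kb. By peak number 12 of the 43 had at least 2 more DOP peaks and 10 at least 2 fewer. Over all 914 domain loci these calls were made at 183 and 207, and the shares were not tested against each other. The 12 include the repeated locus near Gm17379, with 10 DOP and 2 SST peaks. The 10 include the repeated locus near Sfi1, with 4 and 6. One of the 43 loci held the microRNA gene Mir22 (chr11:75273719-75277378), 4203 bp from the start of Tlcd2. It had 7 peaks in each list over 3660 bp. Another held Mirlet7i (chr10:122421640-122423732) with 6 DOP and 4 SST peaks. A stretch of chromosome 15 between 54293 and 67733 bp from Ppara held 3 domain loci, with 6 and 8, 6 and 5, and 2 and 5 peaks in the DOP and SST lists. Near Tnrc18 a locus with no annotated gene in its span had 8 peaks in each list over 4762 bp, and the histone demethylase gene Kdm6b held one of 5 DOP and 4 SST peaks within its body.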

How the data were processed

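H3K9ac ChIP-seq peaks of Q111 SST and Q111 DOP cells (2 samples each) were taken from 1 deposited list per condition. The authors' methods name Bowtie 2 and the GPS peak caller, the submitters' processing notes name BWA 0.7.10 and mm9, and which aligner made the lists is not settled by these sources. How the 2 samples and the IgG sample entered the calls is not given in the sources used here. Each line of the authors' lists holds a 200 bp interval (1 SST interval is 166 bp), a centre and a peak score, and the deposited score has no stated definition, so it was used only as a rank within a list.

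Centres up to 1 kb apart were chained, chains of at least 5 peaks were called domains, and overlapping chains of both lists were merged into loci. A gene was under a domain when the start of a protein-coding transcript (GENCODE vM1, NCBIM37) lay within 1 kb of it. More or fewer means a difference of at least 2 peaks at the locus. Peaks of the lists were matched where their intervals overlapped by at least 1 bp. Shares carry 95% Wilson intervals, which cover counting error only, and no test was run. Python 3.11.15, pandas 2.3.3, numpy 2.4.6, pysam 0.24.0 and samtools 1.23.1 were used, and the chaining was tested on simulated data. Domains and gene lists were chosen with earlier results of these data known. Named loci were the 5 with the most peaks and 3 widest, 8 loci of largest excess in each direction (ties broken by the difference relative to the sum, then by genome order, so that Acsl3 is 1 of 57 loci with 3 fewer DOP peaks), those with at most 1 peak in the other list, 10 genes the study works on, and up to 4 members of each gene list by peak number. Domain loci without a coding start, the Pvt1 locus among them, and further gene list members were picked after their values were seen. Alternatives were chain gaps of 500 bp and 2 kb, at least 4, 6 or 8 peaks, scores of at least 100, the upper 50% of each list, repeated loci left out, differences of 1 or 3, other start site windows and other matching distances.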

Additional observations from a re-analysis of the deposited data

How the results depend on the processing

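No difference between the lists could be set against replicate error, and the depth of the libraries is unknown, so a peak missing from a list may be a peak below the caller's threshold. No paired analysis was possible because each condition has 1 list that names no replicate, and for the same reason no replicate could be left out. Of 126 values recomputed under 14 alternatives, 44 stayed close, which means a count within 1.5 times of the reported one, or a share or median span inside the 95% interval of the reported one, and 82 did not. The SST list held more domains under all 8 alternatives that recomputed that number. More loci had fewer than more DOP peaks under all 10 that recomputed those counts. Among the 647 loci with a longest chain of 5 the counts were close, 128 more and 123 fewer. Leaving out the 4 repeated loci or changing the start site window to 0 bp or 5 kb moved no value beyond these bounds.

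With a chain gap of 500 bp there were 37 DOP and 71 SST domains, holding 0.545% and 1.10% of peaks, with median spans of 1441 and 1339 bp. They covered 39 and 81 genes, 6 in both lists, at 7 shared, 30 DOP-only and 64 SST-only loci, of which 17 had more and 50 fewer DOP peaks. With a gap of 2 kb the shares were 11.1% and 12% and the spans 2222 and 2123 bp.

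With at least 4 peaks there were 1881 and 1918 domains, holding 24.3% and 25.7% of peaks, with spans of 1572 and 1503 bp. They covered 2160 and 2248 genes, 1235 in both, at 1023 shared, 857 DOP-only and 894 SST-only loci, with more peaks at 417 and fewer at 430. With at least 6 the domains were 149 and 176, the shares 2.86% and 3.54%, the spans 2558 and 2430 bp and the genes 190 and 229, 78 in both. Loci were 57 shared, 91 DOP-only and 119 SST-only, with more peaks at 55 and fewer at 84. With at least 8 the domains were 13 and 16, the shares 0.411% and 0.540%, the spans 3758 and 3332 bp and the genes 23 and 29, 14 in both. Loci were 5 shared, 7 DOP-only and 11 SST-only, with more peaks at 3 and fewer at 10.

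With scores of at least 100 the SST share was 10.3%. In the upper 50% of each list by score the domains were 143 and 164, the shares 4.75% and 5.64%, the DOP span 2118 bp and the genes 179 and 209, 97 in both. Loci were 73 shared, 69 DOP-only and 91 SST-only, with more peaks at 36 and fewer at 48. At a difference of at least 1 peak, 363 loci had more and 413 fewer, and at a difference of at least 3 the counts were 60 and 64. Domain peaks without a counterpart were 7.53% (DOP) and 5.21% (SST) when centres within 500 bp were matched, and 27.6% and 25.7% within 100 bp. These counts follow from the construction of each alternative, which admits more or fewer peaks to a chain, a call or a match.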
